A study of Mus musculus with 12 samples.

Results

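The CCN genes encode 6 secreted matricellular growth regulators, and they are described here in cartilage explants that were left untreated, given interleukin-1α (IL-1α) or given retinoic acid. Members were chosen by name. Every probe whose symbol was Cyr61, Ctgf, Nov, Wisp1, Wisp2 or Wisp3 was taken, which are the older symbols of Ccn1 to Ccn6. This gave 8 probes for 5 genes, of 46632 probes for 34509 symbols on the array, and Wisp3 had no probe under that symbol. Of the 8 probes, 5 passed the filter on detection and entered the tests, and they belong to Cyr61, Ctgf, Wisp1 and Wisp2. The remaining 3 probes, both probes of Nov and 1 of Wisp1, were too dim to be tested.

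CCN proteins are built from shared modules that resemble an insulin-like growth factor binding domain, a von Willebrand factor type C repeat, a thrombospondin type 1 repeat and a C-terminal cystine knot. They act outside the cell, where they bind integrins, heparan sulphate proteoglycans and growth factors and alter how cells respond to matrix and to signals such as TGF-β and BMP. Ctgf and Cyr61 are best known in cartilage for roles in the growth plate, and both are widely used as readouts of the transcriptional co-activators YAP and TAZ, which the Hippo kinase cascade restrains. Wisp1 and Wisp2 were named for their induction in Wnt1-transformed cells, and Wisp2 differs from the other members in lacking the cystine knot.

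The study searched for genes that respond to retinoic acid but not to IL-1α in cartilage. Illumina bead arrays measured their RNA, with 12 arrays in all: 4 for untreated explants, 4 for IL-1α and 4 for retinoic acid, split evenly over batch 1 and batch 2. Batch 1 held a mouse line labelled Donut and batch 2 a line labelled Gertrude, so line and batch cannot be told apart. All mice were TS-4/5∆cat, and untreated explants carried the same alleles: in-frame deletions that remove the catalytic domains of ADAMTS-4 and ADAMTS-5 throughout the animal. No wildtype array was included. The mice were 21 days old, and per the labels 4 hips shared a well and were kept in medium with 10% serum for 24 h before treatment. Untreated explants received no agent, IL-1α explants received 10 ng/mL IL-1α and retinoic acid explants received 10 µM retinoic acid, each for 3 days. The labels speak of replicates without saying which arrays came from separate animals, so the p-values measure the spread between these arrays.

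Arrays of the same treatment and batch correlated at 0.983 to 0.995 over the kept probes, and those that shared a treatment but not a batch at 0.868 to 0.902. Between 13786 and 14965 probes were detected on the arrays of batch 1 and between 16732 and 19485 on those of batch 2. All 5 genes fixed as checks of retinoic acid treatment rose with retinoic acid against untreated, and 3 of 4 tested checks of IL-1 treatment rose with IL-1α. Il6, also listed as a check of IL-1, did not pass the filter. Cyp26a1, Stra6 and Nos2 were detected on only 4 arrays and Rarb and Dhrs3 on 5. These genes passed the filter mainly through the treated arrays in which they were high. Among all 18200 tested probes, limma's adjusted p was under 0.05 in 35.4% with retinoic acid and in 29.3% with IL-1α, each against untreated. Of 12 chondrocyte marker genes on the array 10 passed the filter on detection. All 10 were lower with retinoic acid than untreated, and 8 of 10 were lower with IL-1α. Their summed intensity was 78190 to 97510 in untreated arrays, 45760 to 64400 with IL-1α and 15480 to 22460 with retinoic acid. In RNA from whole explants, fewer cells of a type and less RNA per cell cannot be told apart.

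Wisp2, the member without a cystine knot, had the largest response among the 5 tested probes, and it moved in opposite directions with the 2 agents. Values are log2 intensities after background correction and quantile normalization, and they can be compared between arrays for 1 probe but not between probes. In untreated explants the Wisp2 probe, ILMN_1241893, read 11.35 and 11.44 in batch 1, then 11.15 and 11.43 in batch 2. With IL-1α it read 10.67 and 10.73 in batch 1, then 10.44 and 10.60 in batch 2. With retinoic acid it read 13.42 and 13.40 in batch 1, then 13.65 and 13.63 in batch 2. All 4 retinoic acid arrays stood above every other array, all 4 IL-1α arrays stood below every other array, and no groups overlapped. The means were 11.34 ± 0.13 untreated, 10.61 ± 0.12 with IL-1α and 13.53 ± 0.14 with retinoic acid (SD, n = 4 each).

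A difference was called when limma's adjusted p was under 0.05, from a model with terms for treatment and for batch and replicate. Wisp2 was 4.54-fold higher with retinoic acid than untreated, a difference of 2.18 on the log2 scale (SE 0.12, limma adjusted p = 3.4e-08). Against IL-1α the same probe was 7.53-fold higher with retinoic acid (log2 difference 2.91, SE 0.12, limma adjusted p = 2.9e-09). IL-1α lowered it 1.66-fold against untreated (log2 difference -0.73, SE 0.12, limma adjusted p = 0.00078). Each of the 3 comparisons separated its groups completely, and the exact two-sided permutation test of 4 against 4 arrays gave p = 0.0286, the smallest it can give. The order of levels was therefore retinoic acid, untreated, IL-1α, and neighbours in that order differed beyond their spread.

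The Wisp2 response had the same direction in each of the 2 mouse lines. Retinoic acid raised it by 2.01 over untreated in batch 1 and by 2.35 in batch 2 on the log2 scale. The fall with IL-1α was -0.70 in batch 1 and -0.77 in batch 2. The tests of a difference between the batches gave limma adjusted p = 0.479 for retinoic acid and 0.889 for IL-1α, each against untreated. With the arrays scaled to one median the fall with IL-1α was -0.32 in batch 1 and -0.91 in batch 2, a difference of -0.58 that was not called (adjusted p = 0.197). Of 18200 tested probes, Wisp2 ranked 114 by size of rise with retinoic acid against untreated and 59 against IL-1α. The mean over treatments differed by only -0.02 between batch 2 and batch 1 (limma adjusted p = 0.890), in a comparison in which 76.3% of all tested probes were called. On the raw scale the probe ranged from 7666.2 to 14997.1 with retinoic acid, from 1391.1 to 3270.3 untreated and from 1287.1 to 1834.5 with IL-1α. Every alternative processing and every fit that left out 1 array kept all 3 Wisp2 calls. Summed markers of endothelium were 2031 to 2412 with retinoic acid, 1842 to 2281 untreated and 851.7 to 1145 with IL-1α. The retinoic acid and untreated ranges overlapped. Of the 6 tested endothelial markers, 1 rose and 0 fell with retinoic acid against untreated, beside 35.4% of all probes called. With IL-1α 0 rose and 3 fell, beside 29.3%. Other cell types are given further below. The part of endothelium in the Wisp2 values was not tested.

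**Figure D1:**
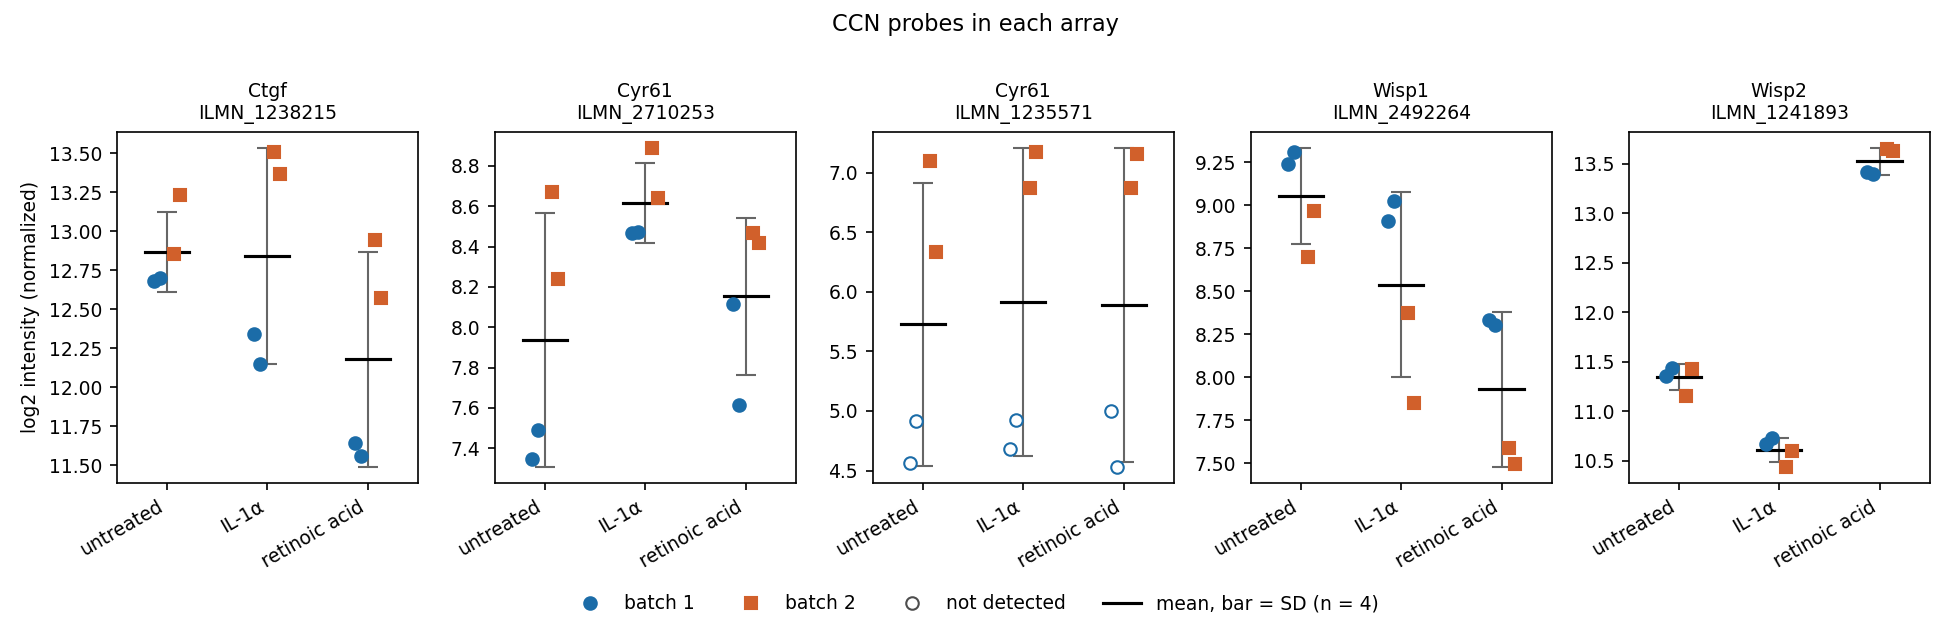
The log2 intensity (y axis) of each of the 5 tested CCN probes is plotted by treatment (x axis), with 1 point per array, circles for batch 1, squares for batch 2, open circles where the probe was not detected, and the mean with its SD (n = 4); each panel has its own y scale. Wisp2 with retinoic acid sits at 13.40 to 13.65, above all other arrays, while the Ctgf and Cyr61 panels show batch 2 mostly above batch 1.

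Wisp1, a target of Wnt/β-catenin signalling that is expressed by skeletal progenitor cells, fell with both agents. Probe ILMN_2492264 read 9.24 and 9.31 in untreated batch 1 arrays, then 8.70 and 8.96 in untreated batch 2 arrays. With IL-1α it read 8.91 and 9.02 in batch 1, then 8.38 and 7.85 in batch 2. With retinoic acid it read 8.33 and 8.30 in batch 1, then 7.59 and 7.50 in batch 2. Within each batch the untreated arrays were highest, the IL-1α arrays were between and the retinoic acid arrays were lowest, with no overlap. Over both batches retinoic acid stayed below all untreated arrays, whereas the IL-1α arrays overlapped both other groups. The means were 9.05 ± 0.28 untreated, 8.54 ± 0.54 with IL-1α and 7.93 ± 0.45 with retinoic acid (SD, n = 4 each).

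Wisp1 was 2.18-fold lower with retinoic acid than untreated, a log2 difference of -1.12 (SE 0.14, limma adjusted p = 4.5e-05, exact two-sided permutation p = 0.0286). It was -0.96 in batch 1 and -1.29 in batch 2. IL-1α lowered it 1.43-fold (log2 difference -0.51, SE 0.14, limma adjusted p = 0.0165, exact permutation p = 0.143), and retinoic acid was below IL-1α by a log2 difference of -0.61 (SE 0.14, limma adjusted p = 0.0053, exact permutation p = 0.114). The IL-1α call was lost without the second untreated array of batch 2 (adjusted p = 0.0584) or the second IL-1α array of batch 2 (adjusted p = 0.0641), with the arrays scaled to one median and not quantile-normalized (adjusted p = 0.189) and with no filter (adjusted p = 0.0512). With that scaling the difference between the agents was also lost (adjusted p = 0.0853), IL-1α against untreated was 0.01 in batch 1 and -0.84 in batch 2, and the groups within a batch no longer all separated. The fall with retinoic acid against untreated was called in every fit of this probe.

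The normalized level of Wisp1 also differed between the batches, which coincide with the lines, by -0.69 for batch 2 against batch 1 (SE 0.11, limma adjusted p = 3.5e-05). On the raw scale, which is not adjusted between arrays, the untreated mean was 362 in batch 1 and 601.5 in batch 2. The raw mean with retinoic acid was 222.45 and 348.65, and with IL-1α it was 404.75 and 368.7. A further Wisp1 probe, ILMN_2453775, was detected on 3 arrays, all of batch 2, and did not pass the filter. It read 5.92 and 5.49 in the untreated arrays of batch 2, 5.27 and 4.75 with IL-1α and 4.89 and 4.78 with retinoic acid. The untreated arrays were again the highest, and no retinoic acid array reached detection. Without the filter none of its 3 comparisons was called (adjusted p from 0.246 to 0.870).

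Ctgf, also called CCN2, is a growth factor cofactor of the growth plate and a classical target of TGF-β, and it was lower with retinoic acid than untreated. Its probe, ILMN_1238215, read 12.68 and 12.70 in untreated batch 1 arrays, then 12.86 and 13.23 in untreated batch 2 arrays. With IL-1α it read 12.34 and 12.15 in batch 1, then 13.51 and 13.37 in batch 2. With retinoic acid it read 11.64 and 11.56 in batch 1, then 12.94 and 12.57 in batch 2. In these quantile-normalized values the retinoic acid arrays of batch 2 overlapped the untreated arrays. The retinoic acid arrays were then the lowest group only within batch 1. With the arrays scaled to one median they were the lowest group within each batch, with no overlap. Within both batches every retinoic acid array was below every IL-1α array.

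The Ctgf means were 12.87 ± 0.26 untreated, 12.84 ± 0.69 with IL-1α and 12.18 ± 0.69 with retinoic acid (SD, n = 4 each). Retinoic acid gave a log2 difference of -0.69 against untreated, which is 1.61-fold lower (SE 0.18, limma adjusted p = 0.0106, exact two-sided permutation p = 0.143). Against IL-1α the difference was -0.66, or 1.58-fold lower (SE 0.18, limma adjusted p = 0.0148, exact permutation p = 0.229). It was -0.65 in batch 1 and -0.68 in batch 2. Both calls were close to the threshold. The first was lost without either untreated array of batch 1 (adjusted p = 0.0510 and 0.0588) and the second without either retinoic acid array of batch 1 (0.0553 and 0.0532) or the first IL-1α array of batch 2 (0.0552), and with no filter both were lost (0.0676 and 0.0893).

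Against untreated, the normalized Ctgf response to IL-1α pointed in opposite directions in the 2 lines. In batch 1 both IL-1α arrays were below both untreated arrays, by -0.45 on average, and in batch 2 both were above both untreated arrays, by 0.39. Over all arrays the difference was -0.03 (95% confidence interval -0.43 to 0.37, limma adjusted p = 0.928). The test of the difference between the batches gave 0.84 with a limma adjusted p of 0.0584, above the threshold, in a comparison in which 4.82% of probes were called. With the arrays scaled to one median the effects were -0.16 in batch 1, where the groups then overlapped, and 0.26 in batch 2, and their difference was 0.42 (adjusted p = 0.394). The mean raw intensity with IL-1α was 1.01 times the untreated one in batch 1 and 1.20 times in batch 2. For Ctgf, the batch 1 effect of retinoic acid against untreated was -1.09 and the batch 2 effect was -0.29. These effects differed by 0.81, which was not called (limma adjusted p = 0.101). Over the fits that left out 1 array this difference ranged from 0.62 to 1.00. With the arrays scaled to one median it was 0.52 (adjusted p = 0.664). Under that scaling the effects were -0.86 and -0.35, and the retinoic acid arrays lay below the untreated arrays within each batch. The mean level of Ctgf was 0.90 higher in batch 2 than in batch 1 (SE 0.14, limma adjusted p = 2.6e-05), larger than any of its 3 treatment differences over all arrays.

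Cyr61, also called CCN1, an immediate early gene whose product binds integrins and heparan sulphate, rose with IL-1α in 1 of its 2 probes. Probe ILMN_2710253 read 7.34 and 7.49 in untreated batch 1 arrays, then 8.67 and 8.24 in untreated batch 2 arrays. With IL-1α it read 8.47 and 8.47 in batch 1, then 8.89 and 8.64 in batch 2. With retinoic acid it read 8.12 and 7.61 in batch 1, then 8.47 and 8.42 in batch 2. In batch 1 both IL-1α arrays exceeded both untreated ones, and in batch 2 the groups overlapped. The means were 7.94 ± 0.63 untreated, 8.62 ± 0.20 with IL-1α and 8.15 ± 0.39 with retinoic acid (SD, n = 4 each).

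IL-1α raised this Cyr61 probe 1.60-fold against untreated, a log2 difference of 0.68 (SE 0.17, limma adjusted p = 0.0081, exact two-sided permutation p = 0.114). The difference was 1.05 in batch 1 and 0.31 in batch 2. Their difference was not called in the test between the batches (-0.74, limma adjusted p = 0.120). It was called with the arrays scaled to one median (-1.28, adjusted p = 0.0395) and without the second untreated array of batch 2 (-0.96, adjusted p = 0.0378). The rise with IL-1α over all arrays stayed called without any single array (adjusted p up to 0.0417). It was close to the threshold with the arrays scaled to one median (adjusted p = 0.0499) and with no filter (adjusted p = 0.0480). With that scaling the rise was 1.41 in batch 1 and 0.13 in batch 2, where the groups overlapped. Retinoic acid against untreated gave 0.22 (95% confidence interval -0.14 to 0.57, limma adjusted p = 0.343). This was 0.45 in batch 1, where both retinoic acid arrays exceeded both untreated ones, and -0.02 in batch 2, where the groups overlapped. These effects differed by -0.46, which was not called (limma adjusted p = 0.459). Retinoic acid was below IL-1α by a log2 difference of -0.46, or 1.38-fold, with a limma adjusted p of 0.0486 and an exact permutation p of 0.0571. That last call was lost in 7 of the 12 fits that left out 1 array (adjusted p from 0.0578 to 0.187), with scaling to one median (0.340), with normalization within each batch (0.0508) and with no filter (0.165). Its mean level was 0.64 higher in batch 2 than in batch 1 (SE 0.13, limma adjusted p = 0.00044).

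The second Cyr61 probe, ILMN_1235571, was detected on all 6 arrays of batch 2 and on none of batch 1, where its raw intensity was 29.6 to 49.3. In batch 2 it read 7.10 and 6.33 untreated, 6.88 and 7.18 with IL-1α and 6.87 and 7.16 with retinoic acid, and the 3 groups overlapped. None of its 3 treatment comparisons was called, and IL-1α against untreated gave 0.19 over all arrays (95% confidence interval -0.22 to 0.59) and 0.31 within batch 2. No difference between the batches is given for its treatment effects, since it had no detected level in batch 1.

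Both probes of Nov, the member known for binding Notch1, were detected on 0 of 12 arrays. ILMN_1231797 had raw intensities of 29.7 to 50.4 and ILMN_1259573 of 27.1 to 52.1. Neither probe was above background in any treatment or line, and no comparison is made for Nov. The arrays carried no probe labelled Wisp3.

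Read together, 4 of the 5 tested CCN probes were called between retinoic acid and IL-1α, 1 higher and 3 lower, where 31.1% of all 18200 tested probes were called. Between retinoic acid and untreated 3 of 5 were called, 1 higher and 2 lower, against 35.4% of all probes. Between IL-1α and untreated 3 of 5 were called, 1 higher and 2 lower, against 29.3% of all probes. With 5 probes of 4 genes, these counts describe the members only. The median log2 difference of the 5 probes was -0.46 between the agents, 0.16 for retinoic acid and -0.03 for IL-1α, each agent against untreated, and the medians over all tested probes were -0.03, 0.02 and 0.02. The 3 comparisons share arrays. Of the 4 probes with a level in both batches, 0 differed between the batches in any treatment effect in limma's test, where 8.76% of all probes did between the agents, 2.86% for retinoic acid and 4.82% for IL-1α, each against untreated. At an unadjusted p under 0.05 the counts were 0, 1 and 2 of 4, the 1 being Ctgf and the 2 Ctgf and Cyr61. Some of these were called in other fits, as given above for Cyr61 and below for Ctgf. In a model with neither batch nor replicate, the Wisp2 calls and the fall of Wisp1 with retinoic acid were kept, and the other 6 calls were lost (adjusted p from 0.251 to 0.495).

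**Figure D2:**
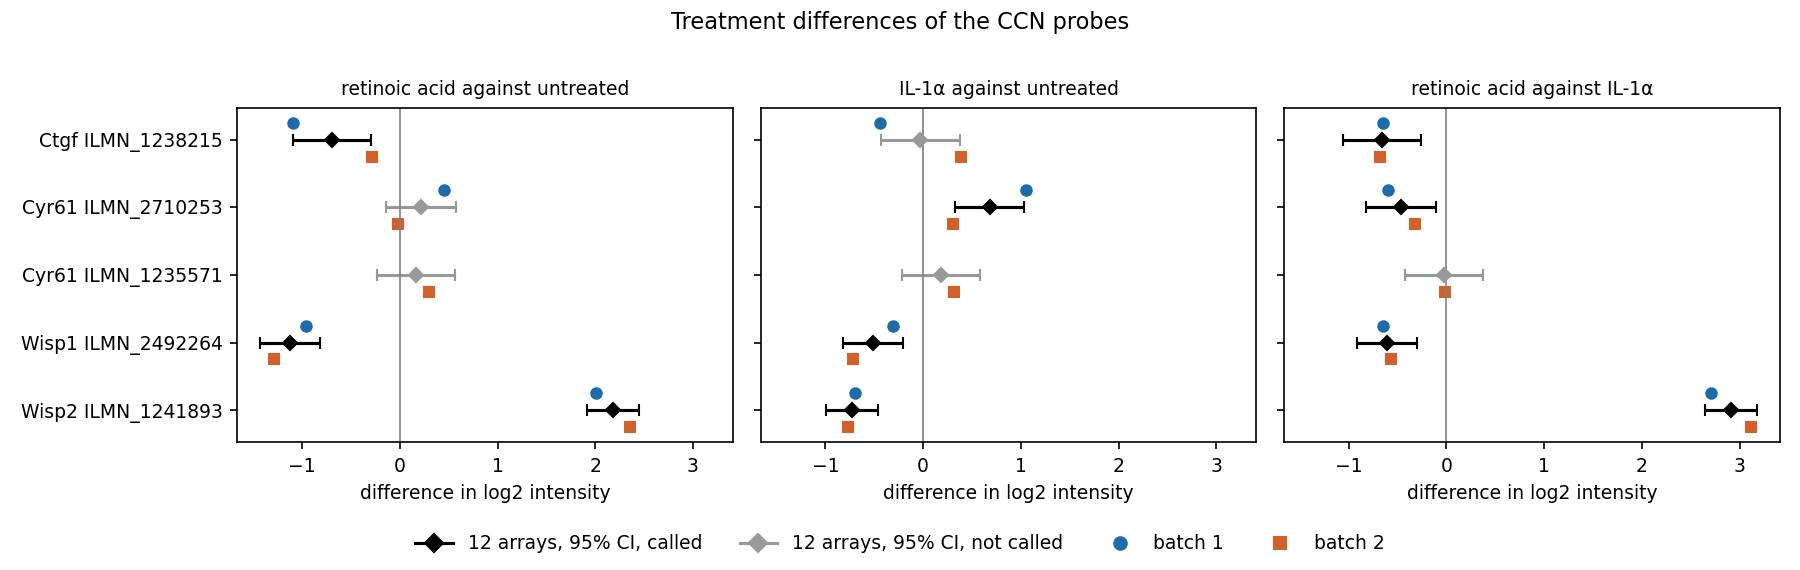
Each panel shows the difference in log2 intensity (x axis) of 1 comparison for the 5 tested CCN probes (y axis); diamonds with bars are the fit over 12 arrays with its 95% confidence interval, black where called and grey where not, and circles and squares are the differences within batch 1 and batch 2. Wisp2 lies at 2.18 for retinoic acid and at -0.73 for IL-1α against untreated, and Ctgf for IL-1α against untreated shows -0.45 and 0.39 on opposite sides of 0 in the 2 batches.

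The promoter of Cyr61 is shown because this gene is a standard readout of YAP/TAZ with the DNA-binding TEAD factors. A promoter entry was matched for 2 of the 6 genes, Cyr61 and Wisp3, in RefSeq sequences of GRCm38.p6. The 250 bases before the Cyr61 start site, chr3:145649986-145650235 on the minus strand, are printed 5′ to 3′ with motif matches in capitals.
Cyr61 promoter: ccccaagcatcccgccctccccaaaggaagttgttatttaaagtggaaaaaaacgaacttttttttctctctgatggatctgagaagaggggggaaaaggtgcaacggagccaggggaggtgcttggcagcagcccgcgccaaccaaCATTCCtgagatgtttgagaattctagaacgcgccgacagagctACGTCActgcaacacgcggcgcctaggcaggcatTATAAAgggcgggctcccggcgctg
The letters searched on both strands were GGAATG, the core that TEAD factors bind, TGACGT, which is most of a cyclic AMP response element, and AGGTCA, the half-site of retinoid receptors, together with the CArG box of serum response factor. TATAAA was searched on the printed strand. GGAATG matched on the opposite strand, read here as CATTCC, beginning 103 bases before the start site, and 12.6% of 32851 promoter windows of this length hold that motif. TGACGT also matched on the opposite strand, read here as ACGTCA, 59 bases before the start site, in 6.47% of windows. TATAAA matched 25 bases before the start site, in 7.59% of windows. AGGTCA and the CArG box were not in these 250 bases, and 14.0% and 1.47% of windows hold them. None of these motifs overlapped in the sequence, and a match is a description of letters.

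Called genes of the Hippo cascade and its cofactors were all higher against untreated and moved both ways between the agents. Of 24 symbols listed, 21 were on the array and 13 passed the filter. With retinoic acid against untreated 6 rose and 0 fell of 13, where 35.4% of all probes were called, with a median log2 difference of 0.31 beside 0.02 for all probes. Tead2, a TEAD factor that carries YAP and TAZ to DNA, rose by 2.83 (limma adjusted p = 3.4e-08), from 7.40 ± 0.13 untreated to 10.23 ± 0.20 with retinoic acid (SD, n = 4), and did not pass the test with IL-1α at -0.26. Amotl1, an angiomotin that holds YAP outside the nucleus, rose by 1.68, Stk3, a kinase at the head of the cascade, by 1.23, and Vgll4, which competes with YAP for TEAD factors, by 1.05.

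With IL-1α against untreated 4 members of this list rose and 0 fell of 13, a share close to the 29.3% of all probes called, with a median of 0.16 beside 0.02 for all probes. They were Amotl2 at 1.01, the kinase Stk4 at 0.47, its scaffold Sav1 at 0.44 and Yap1 itself at 0.40 (limma adjusted p = 0.0381). Between the agents 5 were higher and 2 lower with retinoic acid, beside 31.1% of all probes called. In that comparison Tead2 differed by 3.09, Amotl1 by 1.56, Amotl2 by -1.35 and Vgll4 by 1.02. Wwtr1, which encodes TAZ, gave -0.08 with retinoic acid and -0.09 with IL-1α and did not pass either test. The other TEAD genes of the list, Tead1, Tead3 and Tead4, were too dim to test.

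Other genes that YAP and TAZ activate moved both ways. Of 21 listed, 19 were on the array and 14 were tested. With retinoic acid 5 rose and 3 fell of 14 against untreated, beside 35.4% of all probes called, with a median of 0.14. Gadd45a, a stress-induced growth arrest gene, rose by 2.82, the kinase gene Nuak2 by 1.30 and the growth factor carrier Igfbp3 by 1.22, while the ectonucleotidase gene Nt5e fell by 0.93. With IL-1α 6 rose and 5 fell, beside 29.3% of all probes called, with a median of 0.21: Gadd45a rose by 1.11, Amotl2 by 1.01 and Nt5e by 0.85, and Igfbp3 fell by 1.11. Igfbp3 and Nt5e thus moved in opposite directions with the agents, Igfbp3 up and Nt5e down with retinoic acid. Between the agents 6 were higher and 5 lower with retinoic acid, beside 31.1% of all probes called. The largest differences were Igfbp3 at 2.33, Nt5e at -1.77 and Gadd45a at 1.71. Ankrd1, often measured beside Ctgf and Cyr61 as a YAP readout, did not pass the filter.

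Among the receptors and partners that CCN proteins bind, 7 fell and 4 rose with retinoic acid. Of 21 listed, all were on the array and 19 were tested. Of all probes 35.4% were called in that comparison, against untreated, and the median of the list was -0.07 beside 0.02 for all probes. Acan, the aggrecan core protein that is also a chondrocyte marker, gave a log2 difference of -4.22, the small proteoglycan biglycan, Bgn, of -1.18, the laminin-binding integrin subunit Itga6 of -1.12 and the growth factor gene Bmp4 of -1.09. Bmp2 rose by 0.88, the endocytic receptor gene Lrp1 by 0.60, Vegfa by 0.56 and the common integrin subunit gene Itgb1 by 0.46. Bmp2 was detected on only 6 arrays, and its log2 values with retinoic acid ran from 4.69 to 6.93. The difference given for Bmp2 includes its undetected values.

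With IL-1α against untreated 3 of the 19 rose and 1 fell, beside 29.3% of all probes called, with a median of 0.04. Itga5, a subunit of the fibronectin receptor, rose by 0.62, Igf2r by 0.53 and Lrp1 by 0.45, and Acan fell by 1.56. Between the agents 2 were higher and 7 lower with retinoic acid, beside 31.1% of all probes called. In that comparison Acan differed by -2.66, Bgn by -1.45, Itga6 by -1.26 and Igf2r by -1.22. The integrin subunits that bind Cyr61 and Ctgf as αvβ3 and αvβ5 are encoded by Itgav, Itgb3 and Itgb5. These genes gave between -0.32 and 0.17 against untreated and did not pass the test with either agent. Itgb5 was detected on every array, but Itgav and Itgb3 were each detected on only 6 arrays. Their differences include undetected values, so the tests cannot decide whether Itgav and Itgb3 responded.

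TGF-β response genes, the class in which Ctgf is usually counted, moved in both directions. Of 16 listed, 14 were on the array and 12 were tested. With retinoic acid against untreated 6 rose and 2 fell, beside 35.4% of all probes called, with a median of 0.48. Tmepai, a feedback inhibitor of TGF-β signalling, rose by 2.40 and the inhibitor of differentiation Id3 by 1.53, while the matrix protein gene Tgfbi fell by 2.19 and the repressor gene Tgif1 rose by 0.83. With IL-1α 3 rose and 3 fell, beside 29.3% of all probes called, with a median of 0.00: the latency protein gene Ltbp2 and Tgif1 each rose by 1.51, Junb rose by 1.42 and Tgfbi fell by 1.34. Between the agents 5 were higher and 4 lower with retinoic acid, beside 31.1% of all probes called. Smad7 did not pass the filter.

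**Figure D3:**
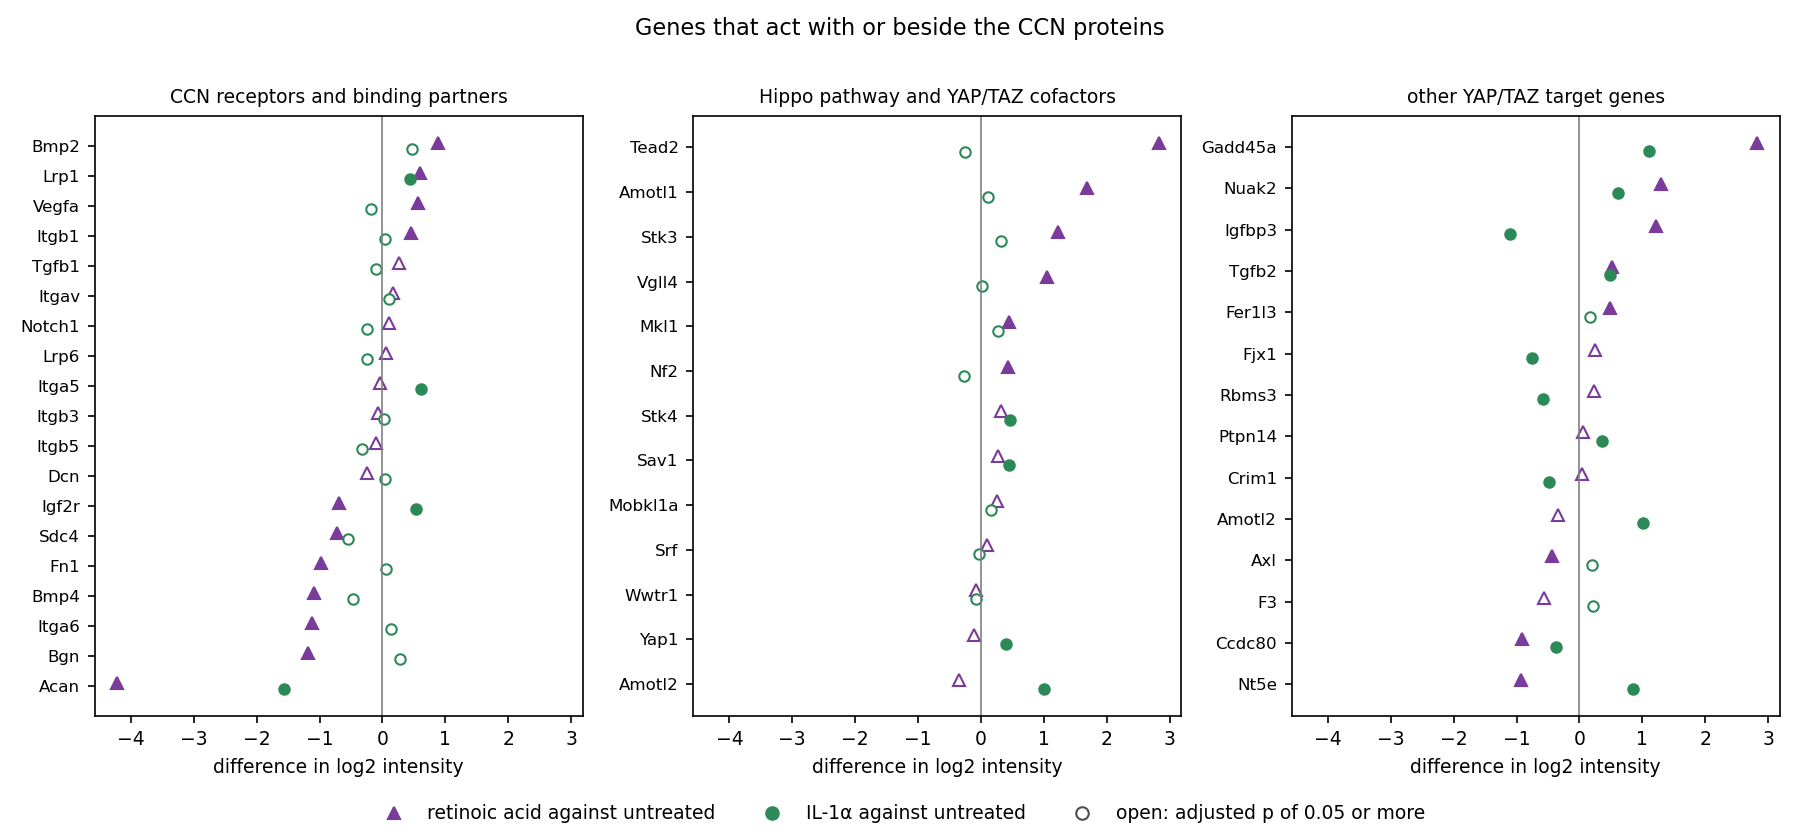
The difference in log2 intensity against untreated (x axis) is plotted for each tested gene (y axis) of 3 lists, with triangles for retinoic acid and circles for IL-1α, filled where the limma adjusted p was under 0.05. Tead2 at 2.83 and Gadd45a at 2.82 lie farthest to the right with retinoic acid, and Acan at -4.22 farthest to the left.

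Some probes followed the CCN probes closely over the 12 arrays once the batch means were subtracted. Likeness was Pearson's r among 11211 probes detected on every array, given as a description: the arrays share treatments, so genes that answer the treatments alike correlate. Wisp2 was followed most closely by A830080H07Rik (r = 0.993), Mdk (r = 0.993) and Clip4 (r = 0.992). Mdk encodes midkine, a heparin-binding growth factor induced by retinoic acid, and its own log2 differences were 3.02 with retinoic acid and -1.27 with IL-1α. Clip4 gave 2.92 and -0.59, and A830080H07Rik 2.04 and -0.48.

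**Figure D4:**
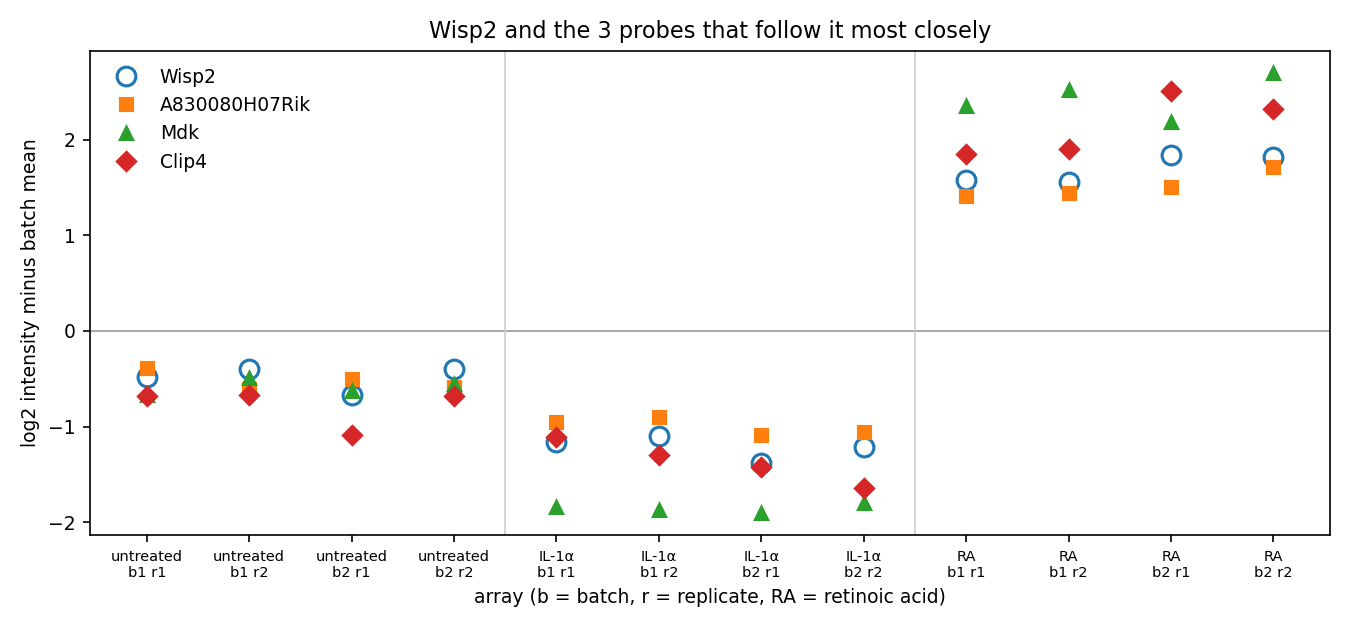
The log2 intensity minus the mean of its batch (y axis) is shown for Wisp2 and the 3 probes most like it in each of the 12 arrays (x axis, grouped by treatment), with 1 symbol per gene and vertical lines between treatments. All 4 genes lie above 0 in every retinoic acid array and below 0 in every other array, lowest with IL-1α.

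Wisp1 was most like Arf2 (r = 0.977), Sobp (r = 0.976) and Cds1 (r = 0.974), which all fell with both agents: Sobp gave -1.94 with retinoic acid and -1.04 with IL-1α. Ctgf was most like Hisppd2a (r = 0.951), B930096F20Rik (r = 0.942) and Clic4 (r = 0.941), and Clic4, an intracellular chloride channel gene, gave -0.68 with retinoic acid and -0.11 with IL-1α. The Cyr61 probe detected on all arrays was most like 4933412A08Rik (r = 0.959), Nup50 (r = 0.949) and Gle1l (r = 0.945). Nup50 and Gle1l both encode proteins that work at the nuclear pore, and their differences with IL-1α were 0.37 and 0.35. The dimmer Cyr61 probe was most like Gadd45gip1 (r = 0.923), LOC386139 (r = 0.908) and Psmd10 (r = 0.883), with its undetected values of batch 1 included. Other CCN probes were left out of this search, so their likeness to each other is not given.

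Markers of other cell types moved with the treatments as well. Among all tested probes 35.4% were called with retinoic acid and 29.3% with IL-1α, each against untreated. A summed intensity is weighted toward the brightest probes of its list. Of 6 tested markers of hypertrophic chondrocytes 4 fell with each agent against untreated and 1 rose with retinoic acid, and Panx3 fell by 4.55 and Ibsp gave -3.06 with retinoic acid. Their sum was 31780 to 43110 untreated, 22120 to 31950 with IL-1α and 22380 to 31860 with retinoic acid. Both tested adipocyte markers fell with each agent, and their sum went from 902.9 to 1382 untreated to 177.4 to 444.7 with IL-1α and 229.1 to 294.4 with retinoic acid. Of 5 tested neutrophil markers 3 fell with retinoic acid and 0 passed the test with IL-1α, and their sum was 8630 to 13190 untreated, 14020 to 15680 with IL-1α and 4755 to 13550 with retinoic acid. Of 3 tested osteoclast markers 2 rose with each agent, and of 2 tested skeletal muscle markers 1 fell with retinoic acid and 2 with IL-1α. Of 5 tested macrophage markers 4 rose with retinoic acid against untreated, while with IL-1α 2 rose and 2 fell. The macrophage markers summed to 1507 to 2771 untreated, 3702 to 6554 with IL-1α and 2358 to 4591 with retinoic acid. Markers of fibroblasts and synovium, of which 6 were tested, summed to 16650 to 19290 untreated, 14870 to 16520 with IL-1α and 11520 to 15170 with retinoic acid. Prg4 was by far the brightest of these probes (mean log2 13.80 untreated, next Col1a1 at 11.23), so this sum mostly follows Prg4. In that list 5 of 6 fell and 1 rose with retinoic acid, and 5 of 6 fell with IL-1α, while of 3 tested osteoblast markers 2 fell with each agent. The erythroid sum was 21520 to 27700 untreated, 24760 to 33850 with IL-1α and 18840 to 31820 with retinoic acid, and none of its 3 tested markers passed the test against untreated. The part of these cell types in the values of Ctgf, Cyr61, Wisp1 and Wisp2 was not tested.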

How the data were processed

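The authors deposited probe intensity on a linear scale, neither background-subtracted nor normalized, for 12 arrays, with a detection score between 0 and 1 (a fraction) that rises with intensity, so 1 minus the deposited fraction served as the detection p. Bead summarization software is not given in the sources used here, and 0 columns stayed unmapped. The paper speaks of serum-free culture and of 3 mice per treatment without naming their arrays, so all arrays were used. In R 4.3.3 with limma 3.58.1, neqc corrected background and quantile-normalized with an offset of 16. Probes detected (p under 0.05) on at least 4 of 12 arrays were kept, 18200 for 14317 symbols, without use of treatment. Models (lmFit, eBayes, Benjamini-Hochberg at 0.05) held treatment with 4 batch-by-replicate levels, as in the study's methods, treatment by batch, or treatment and batch. Functions were tested on simulated data. The number of arrays limits precision.

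The CCN genes and the lists were chosen with earlier results of these data known. Every CCN probe is named, with at most 4 called genes per list and comparison by size of log2 difference, and the 3 probes most like each tested CCN probe. Bmp2, Lrp1, Vegfa and Itgb1 with retinoic acid, and the named genes that were not called or too dim, were added after their values were seen. A list gene is given by its brightest kept probe. Alternatives were other background, scaling, offset, filter, batch terms and probes, and leaving out each array.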

Additional observations from a re-analysis of the deposited data

Results flagged for a closer look

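Ctgf with IL-1α against untreated stood out because every IL-1α array lay below every untreated array in batch 1 and above every untreated array in batch 2. The difference between the 2 effects was 0.84 on the log2 scale (limma adjusted p = 0.0584, unadjusted p = 0.0032). The adjusted p was 0.0190 without the second untreated array of batch 2, the array with the most detected probes, 0.0327 without background correction and 0.0344 with an offset of 50. With the arrays scaled to one median the difference was 0.42 (adjusted p = 0.394) and the batch 1 groups overlapped, and without the second IL-1α array of batch 1 it was 0.74 (adjusted p = 0.214, the highest among the fits that left out 1 array). Batch and mouse line coincide, so they cannot be told apart here. No single array was flagged as far from its group in any of the 15 groups of 4 arrays that were looked at. Each group spans both batches, so a shift between the batches widens it and can hide an outlying array.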

How the results depend on the processing

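The Wisp2 calls and the fall of Wisp1 with retinoic acid against untreated kept their direction and call in every fit of their main probe. Scaling to one median moved the median of all probes by 0.11 for retinoic acid against untreated, and the share of calls that were higher with retinoic acid went from 51.6% to 65.6% against untreated and from 49.0% to 65.6% against IL-1α, with 0 of the called list genes turned in sign and 29 of 33 still called for retinoic acid against untreated, 27 of 35 between the agents and 13 of 24 for IL-1α against untreated. Within-batch values under that scaling were added after seeing the data. That scaling called 3104 probes for IL-1α against untreated (5334 in the main setting), 2641 for the difference between batches of retinoic acid against IL-1α (1594), and 2 CCN probes between the agents (4). Under it ILMN_1235571 of Cyr61 turned to 0.17 between the agents, Ctgf with IL-1α to 0.051, the Ctgf difference between batches between the agents to 0.10 (0.046 with normalization within each batch) and that of Wisp2 with retinoic acid against untreated to -0.21. With no filter 2 CCN probes were called between the agents. Requiring detection on all 12 arrays left 885, 115 and 399 probes that differed between batches (1594, 521 and 878). With neither replicate block nor batch, 1984, 2215 and 1327 probes were called for the 3 comparisons, with 1 CCN probe between the agents and 1 for IL-1α against untreated. The causes were not tested.

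Replicate numbers were not shown to pair the arrays: within batches the deviations of same-numbered arrays correlated at -0.11 to 0.39. A fit with batch but no replicate block called 5938, 6752 and 5702 probes, with the CCN calls at 4, 3 and 3. Leaving out 1 array gave 2 to 4 CCN probes between the agents, fewest without the second retinoic acid array of batch 1. The differences between batches ranged over 696 to 2121, 205 to 606 and 237 to 1684 probes, lowest without the first retinoic acid array of batch 1, the second of batch 1 and the second IL-1α array of batch 2, and highest for IL-1α without the second untreated array of batch 2. Probe ILMN_1235571 of Cyr61 ranged over -0.13 to 0.13, -0.058 to 0.32 and -0.035 to 0.31, and Ctgf with IL-1α over -0.27 to 0.13. Differences between batches ranged over -0.23 to 0.14 for Ctgf and -0.19 to 0.34 for Wisp1 between the agents, and over -0.21 to 0.065 for Wisp2 with IL-1α. Recovery of dim probes such as those of Nov is limited by background.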
